A study of Homo sapiens with 12 samples.

Results

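The 8 genes described here, A1CF, CP, HGD, KYNU, TM4SF20, SLC17A3, SLCO1B3 and HAVCR1, are best known from liver, kidney and intestinal epithelium. They were followed in 2 human lung cancer lines. They were chosen from earlier results of the same arrays for their high signal in the line A549, and each is represented by the probe set with the highest mean over 12 arrays among probe sets annotated with that gene symbol alone. All 8 were among the 16939 genes that passed a filter on dim signals, of 18417 genes with a probe set of 1 symbol. Since a gene could pass that filter through A549 alone, their passing it carries no information.

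RNA levels come from 12 Affymetrix arrays that probe along the whole transcript. A3R is A549, a lung adenocarcinoma line, recovered after 3 rounds of in vivo selection in mice for lung nodules formed from cells injected into a vein, and A0R is A549 after 0 rounds. H3R and H0R are the same 2 states of HTB56, a lung carcinoma line also known as Calu-6. Each of the 4 groups has 3 arrays, all groups are labelled untreated for 5-azacytidine, and nothing in the labels says whether replicates came from separate cultures, so p-values measure only the spread between these samples. Each selected line is 1 cell population that had passed through mice, and selection cannot be told apart from other effects of passage through mice.

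In liver and kidney epithelium a shared set of transcription factors keeps enzymes, carriers and secreted proteins of these organs active. Hepatocytes secrete plasma proteins, break down amino acids and take up bile acids and drugs, and kidney tubule cells move organic anions and urate. Cancers of other organs can transcribe parts of the same programme. In bulk RNA, fewer cells expressing a gene and less RNA per cell cannot be told apart.

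The promoters of the genes were read for one palindromic motif, and the shown stretches are those that hold a match. RefSeq promoter windows (GRCh38.p14, 250 bases before to 50 bases after the annotated gene start) matched 6 of the 8 genes, and CP and HGD had no entry. The windows were searched for a homeodomain palindrome known from promoters of liver and kidney genes: the half-site GTTAAT, 1 free base, then its reverse complement ATTAAC. A match may have up to 3 mismatches in the 12 compared bases, and a palindrome of this kind reads the same on both strands. Below are the 150 bases before the start, on the gene's strand, 5′ to 3′, for the 5 genes with a match, and capitals mark the match. They lie at chr2:227379307-227379456 (minus strand) for TM4SF20, chr6:25874244-25874393 (minus) for SLC17A3, chr12:20810555-20810704 (plus) for SLCO1B3, chr5:157059117-157059266 (minus) for HAVCR1 and chr10:50885628-50885777 (minus) for A1CF.
TM4SF20: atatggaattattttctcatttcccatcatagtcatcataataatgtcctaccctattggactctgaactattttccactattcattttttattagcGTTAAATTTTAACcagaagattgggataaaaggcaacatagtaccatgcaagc
SLC17A3: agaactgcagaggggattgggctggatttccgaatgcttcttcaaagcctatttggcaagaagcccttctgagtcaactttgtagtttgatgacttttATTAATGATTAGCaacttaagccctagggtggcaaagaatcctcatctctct
SLCO1B3: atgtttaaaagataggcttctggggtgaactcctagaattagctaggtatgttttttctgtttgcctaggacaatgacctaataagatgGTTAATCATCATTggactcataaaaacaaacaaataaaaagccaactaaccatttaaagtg
HAVCR1: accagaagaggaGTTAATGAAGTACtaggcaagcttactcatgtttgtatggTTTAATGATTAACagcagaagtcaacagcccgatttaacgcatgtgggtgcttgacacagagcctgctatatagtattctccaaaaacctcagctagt
A1CF: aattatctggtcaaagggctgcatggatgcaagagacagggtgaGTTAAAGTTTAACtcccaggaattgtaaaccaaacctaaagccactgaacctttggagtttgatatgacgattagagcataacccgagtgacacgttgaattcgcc

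A match with at most 2 mismatches stood in 4 of the 6 windows, those of HAVCR1, SLC17A3, TM4SF20 and A1CF, where 1.31% of 35116 promoter windows of the same length hold one. With up to 3 mismatches the matches were in 5 of 6 windows, against 7.56% of all windows, and SLCO1B3 was the addition. The closest match was that of HAVCR1, with 1 mismatch beginning 98 bases before the start, and HAVCR1 also held a match with 3 mismatches beginning 138 bases before it. The other matches began 52 bases (SLC17A3), 53 bases (TM4SF20), 61 bases (SLCO1B3) and 106 bases (A1CF) before the start. KYNU held no match, which says only that these letters are not in its window. The motif was picked with the windows in view, so these shares describe the windows and support nothing beyond them. A match is a description of the sequence, not a binding site, and its link to the RNA levels was not tested. In tumours SLCO1B3 is also known to be transcribed from an internal start, and the arrays as summarised here do not separate the 2 starts.

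**Figure D1:**
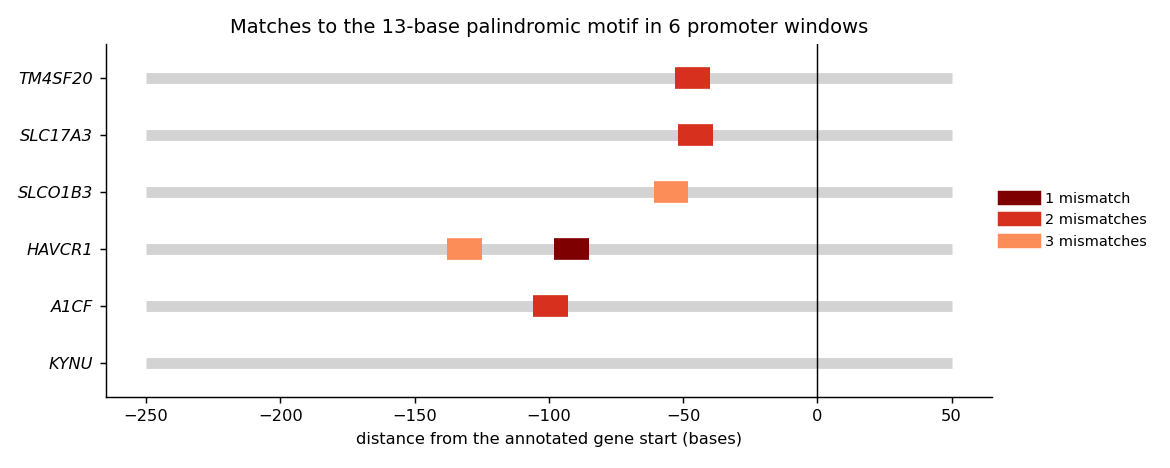
Positions of matches to the palindromic motif in the promoter windows of 6 genes, as distance in bases from the annotated gene start, with darker bars for fewer mismatches. The matches of TM4SF20, SLC17A3 and SLCO1B3 begin 53, 52 and 61 bases before the start, those of HAVCR1 and A1CF farther out, and KYNU has none.

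The values that led to the choice of these genes are those of A549 against HTB56, so they are described here without a test. All values are log2 RMA signals, that is, background-corrected, quantile-normalized probe set signals on a log2 scale, where 1 unit is a 2-fold difference. Levels of different genes are not set against each other. The 20th percentile of an array, 3.48 on average, serves as a mark of the dim end. Ranked by A0R minus H0R among 16939 genes, KYNU, CP, HGD and TM4SF20 stood at places 1, 2, 3 and 4, HAVCR1 at 6, SLCO1B3 at 8, SLC17A3 at 192 and A1CF at 983. Ranked by A3R minus H3R, KYNU, HAVCR1 and SLCO1B3 stood at 13, 14 and 15, HGD at 23, CP at 28, TM4SF20 at 51, SLC17A3 at 1534 and A1CF at 3262. Every A549 array lay above every HTB56 array for each of these genes except A1CF. The choice of the genes used that difference. The share of all genes with that order is not given here, so the order is only described. In HTB56 the 8 genes read between 2.74 and 5.22, and 37 of 48 values lay above the 20th percentile of their array. By definition all but 20% of the probe sets of an array exceed that mark, so this count does not show that the genes are expressed in HTB56.

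KYNU encodes kynureninase, an enzyme of the kynurenine pathway that leads from tryptophan toward NAD. It read 10.74, 10.68 and 10.72 in A3R, against 10.86, 10.80 and 10.84 in A0R. In HTB56 it read 5.16, 4.61 and 4.64 in H3R, against 4.28, 5.22 and 4.23 in H0R. The 6 A549 arrays lay in a narrow band far above the HTB56 arrays, and the HTB56 groups overlapped. The difference between the lines was 5.91 in the selected state (A3R minus H3R) and 6.25 in the unselected state (A0R minus H0R).

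HGD encodes homogentisate dioxygenase, the enzyme of tyrosine breakdown that is missing in alkaptonuria. It read 9.50, 9.75 and 9.93 in A3R, against 10.12, 10.32 and 10.93 in A0R. It read 4.36, 4.21 and 4.08 in H3R, against 4.04, 4.55 and 4.71 in H0R. All A3R arrays were below all A0R arrays, while the HTB56 groups overlapped. HGD has 2 probe sets, and they hold identical values on every array. The line difference was 5.51 between selected and 6.02 between unselected lines.

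CP encodes ceruloplasmin, the copper-carrying ferroxidase that hepatocytes secrete into plasma. It read 8.61, 9.09 and 8.95 in A3R, against 9.33, 9.80 and 10.08 in A0R. In HTB56 the readings were 3.24, 3.31 and 3.87 in H3R, against 3.63, 3.90 and 3.17 in H0R. The A549 groups did not overlap, and in HTB56 3 of 6 arrays were above their 20th percentile. A549 exceeded HTB56 by 5.41 in the selected and 6.17 in the unselected state, and since HTB56 is at the dim end these sizes depend on background.

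A1CF encodes the RNA-binding partner of the deaminase APOBEC1 in editing of apolipoprotein B mRNA. It was dim throughout, at 3.89, 4.04 and 4.27 in A3R, against 4.47, 4.97 and 5.47 in A0R. It read 3.59, 3.74 and 3.86 in H3R, against 3.90, 3.79 and 3.86 in H0R. The A0R arrays stood above the rest and differed among themselves more than those of any other group. The lowest A3R array lay within the HTB56 range, and the difference between the lines was 0.34 in the selected and 1.12 in the unselected state.

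Among the membrane carriers, SLC17A3 encodes an organic anion and urate transporter of the kidney tubule. It read 4.77, 4.35 and 4.37 in A3R, against 6.38, 6.33 and 7.001 in A0R. It read 3.64, 3.71 and 3.86 in H3R, against 3.82, 3.26 and 3.56 in H0R. The groups of A549 were separate, and A3R stood 0.76 above H3R where A0R had stood 3.02 above H0R.

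SLCO1B3 encodes OATP1B3, which takes bile acids and drugs up into hepatocytes. It read 8.76, 8.78 and 8.71 in A3R, against 8.81, 9.01 and 9.34 in A0R. HTB56 arrays gave 3.02, 2.74 and 2.80 in H3R, against 3.32, 3.11 and 3.21 in H0R. None of the 6 HTB56 values reached the 20th percentile of its array, so the line differences, 5.90 selected and 5.84 unselected, depend on background.

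TM4SF20 encodes a multi-span membrane protein that restrains proteolytic activation of the transcription factor CREB3L1. It read 8.47, 8.64 and 8.63 in A3R, against 9.68, 9.67 and 10.47 in A0R. It read 3.85, 3.43 and 4.34 in H3R, against 4.06, 4.23 and 3.53 in H0R. The A3R arrays lay close together and below all A0R arrays. Its line difference was 4.71 in the selected and 5.997 in the unselected state.

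HAVCR1 encodes KIM-1, a phosphatidylserine receptor that injured proximal tubule cells display. It read 9.86, 9.71 and 9.72 in A3R, against 10.20, 9.77 and 10.25 in A0R. It read 3.85, 3.86 and 3.89 in H3R, against 3.92, 4.33 and 4.09 in H0R. It was the 1 gene of the 8 whose A3R and A0R arrays overlapped. A549 exceeded HTB56 by 5.90 in the selected and 5.96 in the unselected state.

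**Figure D2:**
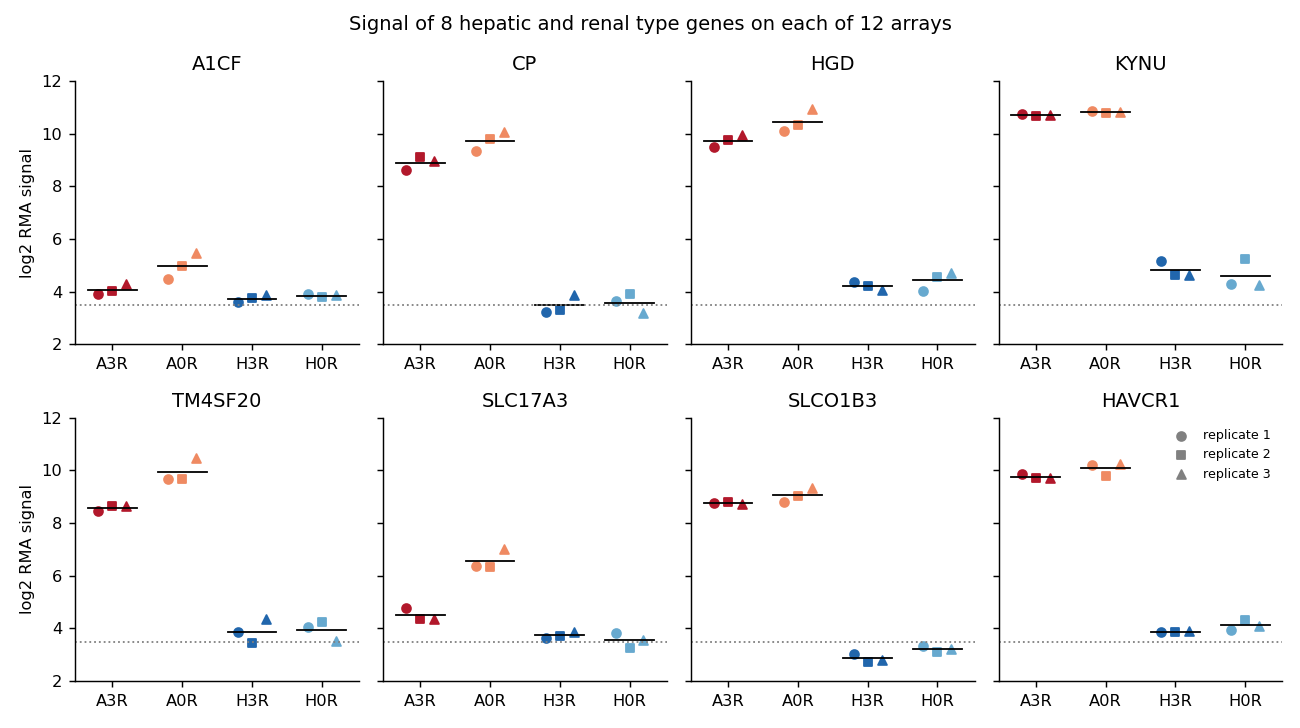
Log2 RMA signal of the 8 genes on each array, by group (3 arrays each, marker shape for the replicate number, black line for the group mean, dotted line for the mean 20th percentile of 3.48). The A549 arrays stand far above the HTB56 arrays for 6 genes, while SLC17A3 and A1CF in A3R come close to HTB56.

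**Figure D3:**
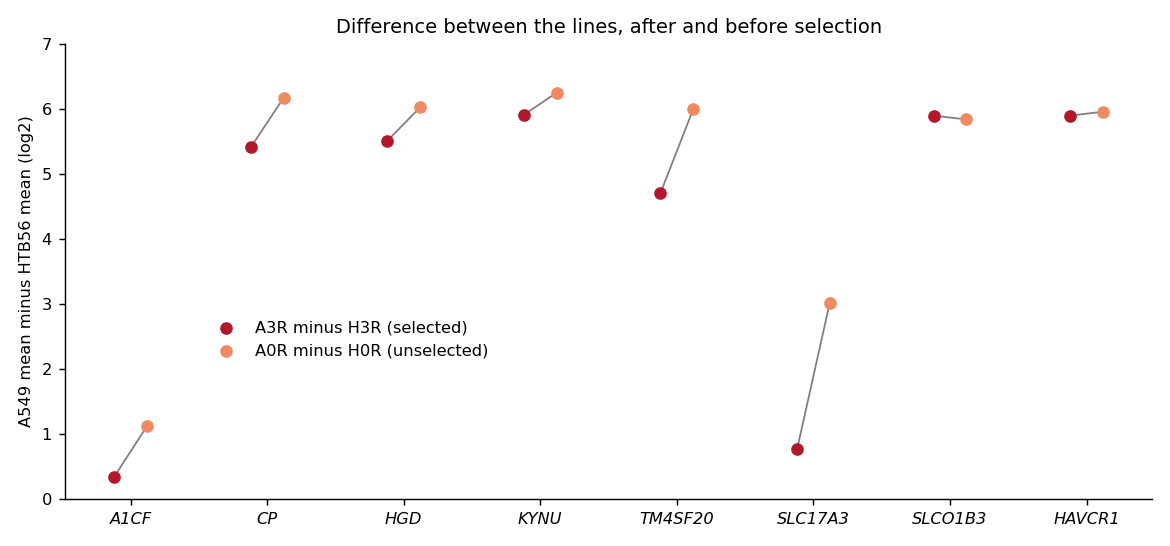
Mean of A549 minus mean of HTB56 (log2) for each gene, selected lines left and unselected lines right. The difference is 0.76 against 3.02 for SLC17A3 and 4.71 against 5.997 for TM4SF20, and nearly the same in both states for SLCO1B3 and HAVCR1.

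The comparison of A3R with A0R asks how these genes differ between A549 cells selected for lung colonisation and the unselected line. All 8 read lower on average in A3R, with a median log2 change of -0.79 against -0.01 over all genes. SLC17A3 was picked with its fall known and is not counted in the calls. Of the 7 other genes limma called 2, TM4SF20 and A1CF, as lower at an adjusted p below 0.05 over all genes, and 0 as higher, while 6 of the 7 had an unadjusted p below 0.05. Limma called 1.75% of the 16939 genes in this comparison, 0.809% as lower and 0.945% as higher, and 9.97% had an unadjusted p below 0.05. The A3R arrays were all below the A0R arrays for 7 of the 8 genes, where 6.48% of all genes show that order and 6.27% the opposite one. The genes were picked with results of this comparison known, so these counts describe the 8 genes and support nothing beyond them. The A549 arrays also entered that choice, so the limma p-values of single genes, here and between lines, carry the same limit.

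SLC17A3 averaged 4.50 ± 0.24 in A3R and 6.57 ± 0.37 in A0R (SD, n = 3 each), a log2 change of -2.07 (SE 0.18), or 4.21-fold lower. Because that fall was known when the gene was chosen, it is given without a test. TM4SF20 fell to 8.58 ± 0.10 in A3R, against 9.94 ± 0.46 in A0R, a log2 change of -1.36 (SE 0.24, limma adjusted p = 0.00862), which is 2.56-fold lower. A1CF fell to 4.07 ± 0.19 in A3R, against 4.97 ± 0.50 in A0R, at -0.90 (SE 0.19, limma adjusted p = 0.024). Its call was lost without A0R replicate 2 (adjusted p = 0.0805) or 3 (0.0538), without A3R replicate 1 (0.102) or 2 (0.0873), and in a fit on the 6 A549 arrays (0.1).

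CP and HGD lay lower in A3R without passing the test. CP was 8.88 ± 0.25 in A3R and 9.74 ± 0.38 in A0R (log2 change -0.85, 95% interval -1.33 to -0.37, limma adjusted p = 0.0835), and it was called without A0R replicate 1 (adjusted p = 0.0452). HGD was 9.73 ± 0.22 in A3R and 10.46 ± 0.42 in A0R (log2 change -0.73, interval -1.17 to -0.29, limma adjusted p = 0.112). With the replicate number as a block HGD was called (limma adjusted p = 0.0449). That block called 562 genes in all, against 297 without it.

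The remaining 3 genes differed less. SLCO1B3 changed by -0.30 (interval -0.58 to -0.03, limma adjusted p = 0.43) and HAVCR1 by -0.31 (interval -0.59 to -0.02, adjusted p = 0.46). KYNU gave -0.12 (interval -0.57 to 0.34, adjusted p = 0.95), with SDs of 0.03 in both A549 groups. That interval comes from a spread shared by all 12 arrays, and HTB56 arrays varied far more for KYNU, with an SD of 0.31 in H3R and 0.56 in H0R. On same-number arrays A3R lay below A0R in all 3 pairs for each of the 8 genes, or 24 of 24 pairs, and H3R below H0R in 17 of 24, though the 8 genes were read on the same arrays and are not replicates. A0R replicate 3 was the highest A0R array for 7 of the 8 genes, KYNU being the exception, and its part in the changes is seen without it: the change was then -1.09 for TM4SF20 (limma adjusted p = 0.0273), -1.86 for SLC17A3 and -0.65 for A1CF.

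**Figure D4:**
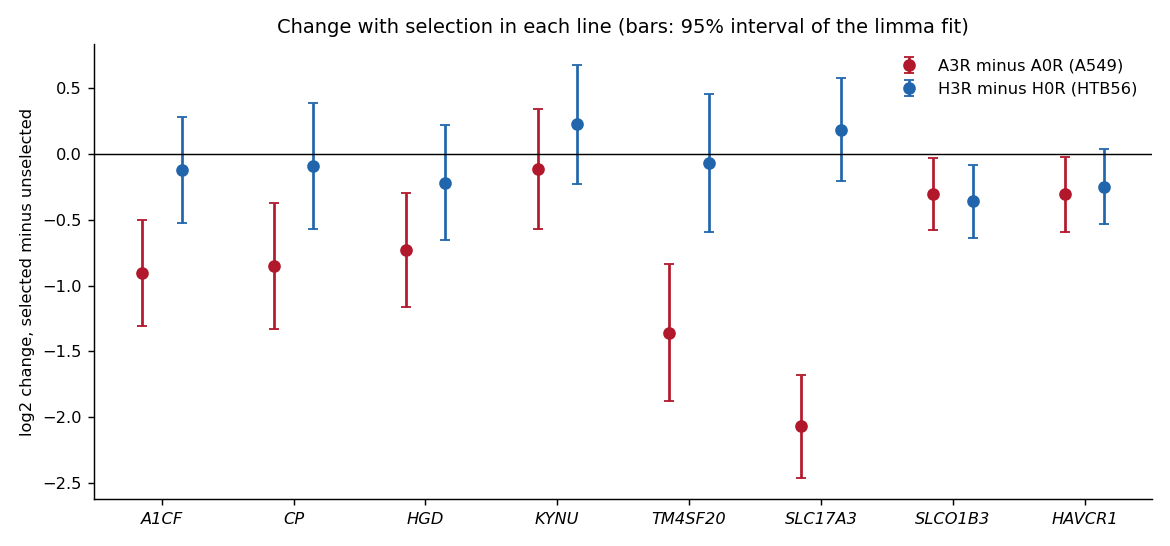
Log2 change with selection for each gene, A3R minus A0R beside H3R minus H0R, with the 95% interval of the limma fit over 12 arrays. SLC17A3 (-2.07), TM4SF20 (-1.36) and A1CF (-0.90) show the lowest A549 values, while every HTB56 change lies between -0.36 and 0.23. The lowest HTB56 value is that of SLCO1B3, dim on all HTB56 arrays and not read as a change.

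In HTB56 the same comparison, H3R against H0R, called 0 of the 8 genes with limma, where it called 19.5% of all genes (8.57% higher, 10.9% lower), and 1 of the 8, SLCO1B3, had an unadjusted p below 0.05, as did 28.9% of all genes. SLCO1B3 read 2.85 ± 0.15 in H3R and 3.21 ± 0.10 in H0R. With all 6 arrays under the 20th percentile, no change of SLCO1B3 is read from HTB56. The other 7 changes lay between -0.25 for HAVCR1 and 0.23 for KYNU, with intervals that include 0. H3R and H0R arrays did not overlap for 2 of the 8 genes, SLCO1B3 and HAVCR1, against 34.3% of all genes.

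The change with selection was also tested for a difference between the lines, as A549 minus HTB56. Of the 7 genes other than SLC17A3 limma called 1, TM4SF20, with the lower change in A549, where 11.8% of all genes were called (6.58% with the higher change in A549, 5.22% with the lower). TM4SF20 differed by -1.29 (SE 0.35, limma adjusted p = 0.0247), a call lost without A3R replicate 1 (adjusted p = 0.0569), H0R replicate 3 (0.0594) or H3R replicate 3 (0.0549) and with array weights (0.0641). SLC17A3 differed by -2.26 (SE 0.26), given without a p for the reason above. A1CF differed by -0.78 (SE 0.27, limma adjusted p = 0.0758), and was called with the replicate block (adjusted p = 0.0221), with array weights (0.0436) and without A0R replicate 1 (0.0065). For HAVCR1 the difference of changes was -0.06 (interval -0.47 to 0.35, adjusted p = 0.909). For SLCO1B3, dim on every HTB56 array, none is given.

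Genes with related roles were read from 13 lists, chosen with earlier results of these arrays known, which hold 143 genes, of which 130 had a probe set of 1 symbol and 114 were tested. In A3R against A0R 4 of the 114 were called lower and 1 higher, and the share called lower, 3.51%, stands beside 0.809% of all genes. In H3R against H0R 12 were called lower and 9 higher, or 18.4% in all, near the 19.5% of all genes, so the HTB56 calls named below are values of single genes and show nothing particular to the lists. Over all genes limma called 1.75% in A549, and 9.97% had an unadjusted p below 0.05. In HTB56 these shares were 19.5% and 28.9%. The lists are short, so the list and marker counts below are descriptions beside these shares and not results about a list. Of the list genes 29 lay at least 1 log2 unit higher in A0R than in H0R and 6 at least 1 unit lower, so that 25.4% were higher by that much, where over all genes 6.77% were higher and 7.16% lower.

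Hepatic plasma protein genes had 2 of 19 called lower in A3R, where 0.809% of all genes were, and 0 higher. Their median log2 change was -0.19, against -0.01 over all genes. In H3R against H0R limma called 0 of 19, against 19.5% of all genes, and 0 had an unadjusted p below 0.05, against 28.9%. FGB, the fibrinogen beta chain gene, fell to 6.35 ± 0.41 in A3R, against 8.23 ± 0.69 in A0R (log2 change -1.88, SE 0.27, limma adjusted p = 0.00153). TF, the transferrin gene, fell to 3.69 ± 0.03 in A3R, against 4.53 ± 0.20 in A0R (-0.85, SE 0.12, limma adjusted p = 0.00117). In A0R 7 of the 19 were at least 1 unit above H0R and 0 as far below. ALB, the albumin gene, did not pass the filter and read 3.28 in A3R, 3.17 in A0R, 3.21 in H3R and 3.14 in H0R, at the dim end in all groups.

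Relatives and neighbours of SLC17A3 differed from each other. SLC17A1, a phosphate and urate transporter gene of the same chromosome 6 cluster, fell to 3.49 ± 0.02 in A3R, against 4.75 ± 0.38 in A0R (log2 change -1.26, SE 0.15, limma adjusted p = 0.000268). Between SLC17A1 and SLC17A3 lie H2AC1, H2BC1 and SLC17A4, of which SLC17A4 was not tested. H2AC1, at the dim end, read 3.45 in A3R and 3.51 in A0R (limma adjusted p = 0.946), and H2BC1 3.80 and 3.72 (0.952). On the other side of SLC17A3 the next coding gene, SLC17A2, was 4.42 in A3R and 4.30 in A0R (adjusted p = 0.856). The nearby TRIM38 was 6.97 and 6.75 (adjusted p = 0.582). H2AC1, H2BC1, SLC17A2 and TRIM38 were picked by their place in the annotation, after values were seen. Of 6 tested SLC17 relatives SLC17A1 was the 1 called in A549, and in HTB56 SLC17A5, a lysosomal sialic acid exporter gene, rose by 0.61 (limma adjusted p = 0.000856) and SLC17A9, a vesicular nucleotide carrier gene, by 0.43 (0.0322). The SLC17A9 call was lost under 6 of 21 alternatives.

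Of 6 tested genes of phenylalanine and tyrosine breakdown, the route of HGD, 1 was called lower in A3R. That was HPD, whose enzyme makes the substrate of HGD, at 4.15 ± 0.26 in A3R and 5.02 ± 0.19 in A0R (log2 change -0.87, SE 0.14, limma adjusted p = 0.00313). TAT, which starts the route from tyrosine, read 3.99 in A3R and 4.19 in A0R (adjusted p = 0.735), and FAH, its last enzyme, 7.76 and 7.74 (adjusted p = 0.993). In HTB56 limma called 0 of the 6, with 0 also at an unadjusted p below 0.05.

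Of 8 tested kynurenine pathway genes, the route of KYNU, limma called 0 in A549, with 2 at an unadjusted p below 0.05. TDO2, which opens the pathway in liver, was 4.04 ± 0.22 in A3R and 3.57 ± 0.18 in A0R (log2 change 0.47, limma adjusted p = 0.143). IDO1, which opens it elsewhere, and KMO, which acts just before KYNU, did not pass the filter, at 3.37 and 3.55 in A3R against 3.29 and 3.28 in A0R. In HTB56 the aminotransferase genes KYAT1 and KYAT3 fell by 0.59 (limma adjusted p = 0.00203) and 0.35 (0.0145), and AADAT rose by 0.36 (0.04), of which AADAT lost its call under 9 of 21 alternatives and KYAT3 without H0R replicate 1 or H3R replicate 2 (adjusted p up to 0.0787).

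For A1CF, the editing partners gave 0 calls among 4 tested in A549, with 1 at an unadjusted p below 0.05. APOBEC1 read 4.21 in A3R and 4.34 in A0R (limma adjusted p = 0.895), and APOB, the edited transcript, 3.67 and 4.01 (adjusted p = 0.339). RBM47, another RNA-binding cofactor of APOBEC1, was 9.94 in A3R and 10.17 in A0R (adjusted p = 0.577), and in HTB56 it fell to 6.03 in H3R, against 6.50 in H0R (adjusted p = 0.0111), a call lost without H0R replicate 2 or H3R replicate 1 (up to 0.0635).

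Transcription factors of liver and kidney epithelium gave 0 calls among 18 tested in A549, with 2 at an unadjusted p below 0.05. FOXA1 read 7.15 in A3R and 7.20 in A0R (limma adjusted p = 0.982), and FOXA2 8.20 and 8.13 (adjusted p = 0.91). HNF4G, not called in A549, read 5.24 in A3R and 4.71 in A0R (log2 change 0.53, interval 0.24 to 0.81, adjusted p = 0.0678). Its change in A549 minus that in HTB56 was -0.02 (limma adjusted p = 0.975). In HTB56 FOXA2 rose by 0.65 (adjusted p = 0.000264) and HNF4G by 0.54 (0.00907), while PPARA fell by 0.85 (0.00564), ONECUT2 by 0.61 (0.0154) and NR5A2 by 0.47 (0.0424). NR5A2 lost its call under 6 of 21 alternatives (adjusted p up to 0.168), and ONECUT2 without H0R replicate 2 or H3R replicate 1 (up to 0.0864).

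Copper and iron handling genes, which work with ceruloplasmin, had 0 of 11 called in A549, with 3 at an unadjusted p below 0.05. In HTB56 the transferrin receptor gene TFRC rose by 0.80 (limma adjusted p = 0.000464) and TFR2 by 0.46 (0.0174), and the copper pump gene ATP7B fell by 0.76 (0.000459). TFR2 lost its call without H0R replicate 1 or H3R replicate 3 (adjusted p up to 0.0792). Relatives of SLCO1B3 had 0 of 6 called in A549, with 0 at an unadjusted p below 0.05. The closest relative, the hepatocyte carrier gene SLCO1B1, read 4.59 ± 0.34 in A3R and 4.57 ± 0.54 in A0R (adjusted p = 0.993), and SLCO4A1 fell in HTB56 by 0.59 (0.00373).

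Of 15 renal proximal tubule genes ANPEP, which encodes a brush border aminopeptidase, was the 1 called, higher at 7.38 ± 0.33 in A3R and 6.56 ± 0.20 in A0R (log2 change 0.81, limma adjusted p = 0.0134), a call lost without A0R replicate 3 or A3R replicate 1 and in a fit on 6 arrays (adjusted p up to 0.0587). Limma called 0 of 7 hepatic uptake and efflux genes in A549, with 0 at an unadjusted p below 0.05, and the bile canaliculus efflux pump gene ABCC2 read 11.65 ± 0.29 in A3R and 11.69 ± 0.20 in A0R. In HTB56 ABCC2 fell by 2.12 (adjusted p = 1.58e-06), to 5.66 in H3R, against 7.78 in H0R.

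The 9 kidney injury genes, which accompany HAVCR1 in damaged tubules, gave 0 calls in A549, with 1 at an unadjusted p below 0.05. In HTB56 CLU rose by 0.51 (limma adjusted p = 0.0296), while SPP1 fell by 1.53 (4.05e-06) and CD44 by 0.40 (0.0133). CLU and CD44 each lost their call under 4 of 21 alternatives, each of which leaves out 1 HTB56 array (adjusted p up to 0.126 and 0.0614). Of HAVCR2 and TIMD4, the relatives of HAVCR1, limma called 0 in either line, with 0 in A549 and 1 in HTB56 at an unadjusted p below 0.05. Of 4 tested relatives of TM4SF20, limma called 0 in A549, with 1 at an unadjusted p below 0.05, and in HTB56 TM4SF1 rose by 0.96 (4.35e-05) and TM4SF18 fell by 2.79 (7.43e-10).

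**Figure D5:**
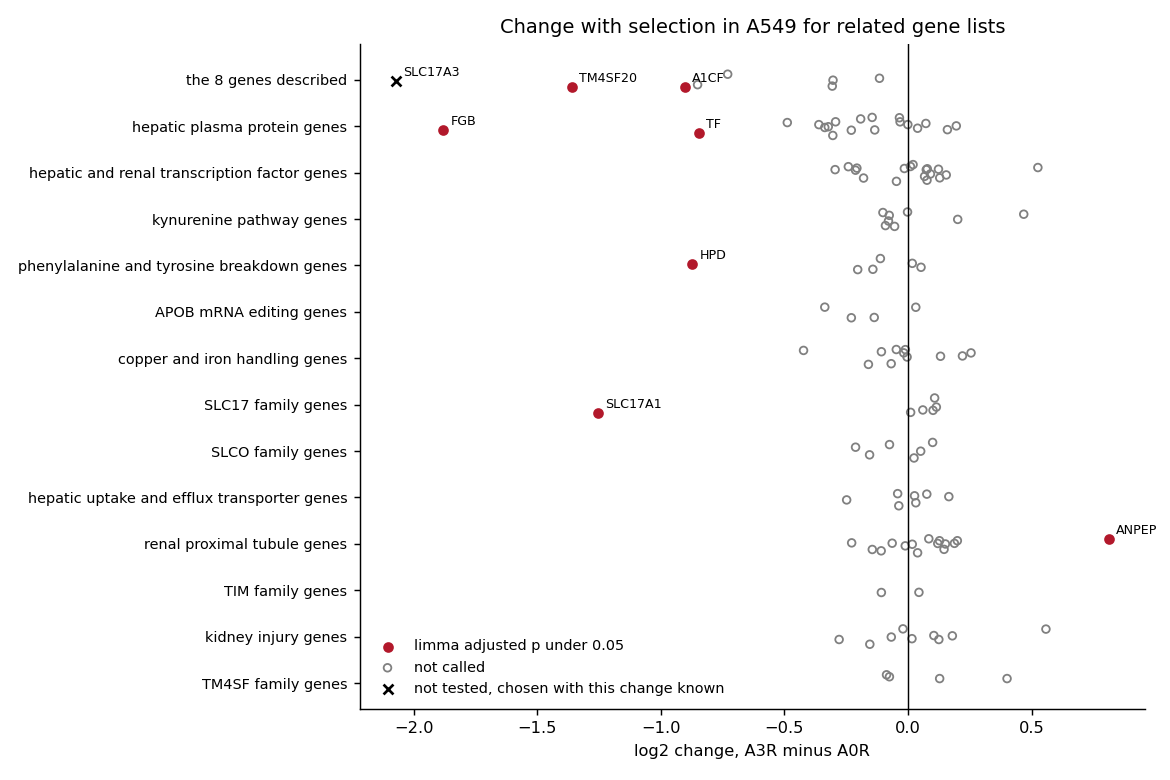
Log2 change of A3R minus A0R for the 8 genes and for each tested gene of 13 related lists, 1 point per gene, filled where limma called it and a cross for SLC17A3, which was not tested. Outside the 8 genes, FGB, SLC17A1, HPD and TF are called lower and ANPEP higher.

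The most similar profiles among genes outside the 8 were found by Euclidean distance between log2 profiles over the 12 arrays, each centred on its own mean. Outside the 8 genes, SLC17A3 lay nearest to F5, the coagulation factor V gene (distance 1.20), and to the decoy receptor gene IL1R2 (1.29). TM4SF20 lay nearest to the amino acid transporter gene SLC7A7 (1.24), which averaged 8.61 in A3R and 10.12 in A0R, and to CDH17, the liver-intestine cadherin gene (1.49). A1CF was nearest to USH1C (0.73) and KCNJ16 (0.76), and CP to PON3 (1.22) and RSPO3 (1.28). HGD lay nearest to RSPO3 (1.04) and BICC1 (1.11), KYNU to NRIP1 (1.10) and AKR1C2 (1.13), SLCO1B3 to CNTN1 and AKR1C2 (0.76 each), and HAVCR1 to RSPO3 (0.63) and OSMR (0.84). Some of the 8 genes lay closer to each other than to any gene outside: the closest pair was SLCO1B3 and HAVCR1 (0.71 for SLCO1B3, against 0.76 outside), HGD lay 0.947 from SLCO1B3, KYNU 1.04 from HAVCR1, and CP 1.15 from TM4SF20. All 12 arrays enter each distance, and for bright A549 genes the gap between the lines makes up most of the likeness.

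Markers of the labelled tissue and of other cells were read beside these results. Of 10 tested lung epithelial markers limma called 0 in either line, with 1 in A549 and 0 in HTB56 at an unadjusted p below 0.05. NKX2-1, the lung lineage factor gene, averaged 4.27 in A3R, 4.18 in A0R, 4.14 in H3R and 4.17 in H0R, and the surfactant gene SFTPB 4.97, 5.01, 5.13 and 5.05. These means lie above the mean 20th percentile of 3.48 and below the lowest array median of 5.55. Of 6 carcinoma epithelial markers the keratin gene KRT19 was called higher (log2 change 1.14, adjusted p = 0.000461) and the E-cadherin gene CDH1 lower (-0.85, 0.00875) in A3R against A0R. EPCAM, an epithelial carcinoma marker, was 7.60 in A3R, 8.02 in A0R, 7.34 in H3R and 6.32 in H0R. In H3R against H0R EPCAM was called higher (log2 change 1.02, limma adjusted p = 0.00588) and the keratin gene KRT7 lower (-0.91, 0.000278). Of markers of cells that a mouse lung could leave behind, 0 of 6 fibroblast, 0 of 5 endothelial and 0 of 4 leukocyte genes were called in A3R against A0R, with 1, 0 and 1 at an unadjusted p below 0.05. Summed over the 6 genes, fibroblast markers ranged from 31.1 to 32.3 in A3R and from 29.9 to 31.4 in A0R on the log2 scale. The endothelial sums over 5 genes did not overlap, at 23.1 to 23.3 in A3R and 22.6 to 23.0 in A0R, nor did the leukocyte sums over 4 genes, at 22.6 to 22.8 in A3R and 22.9 to 23.3 in A0R. In HTB56 4 of the 6 fibroblast markers (COL1A1, COL3A1, LUM and PDGFRA) were called higher in H3R, where 8.57% of all genes were. Their H0R means, in that order, were 6.61, 5.42, 4.84 and 6.56. Fibroblast sums ran from 40.2 to 41.3 in H3R and from 34.9 to 36.7 in H0R. CD68, 1 of 4 leukocyte markers, was also called higher, and leukocyte sums ran from 22.8 to 23.2 in H3R and from 22.5 to 22.6 in H0R. The part of these markers in the A549 and HTB56 results was not tested.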

How the data were processed

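Signals were measured on 12 arrays in 4 groups of 3. The deposited values are log2 RMA signals, and the submitters' processing notes name Expression Console as the tool, with no version given in the sources used here. RMA compresses differences of dim genes and forces arrays to 1 distribution. The table held 33297 probe sets, 0 missing values and 0 unused columns, and array medians ran from 5.55 to 5.67. Of the probe sets 19460 carried 1 symbol, and 19429 matched RefSeq (GRCh38.p14) by Entrez identifier. Probe sets had to exceed the 20th percentile of the array's signals on 3 or more arrays, and the brightest per gene was used. Scanner files were not used here. List genes without a probe set of 1 symbol were not analysed here.

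Group means were fitted over 12 arrays with limma 3.58.1 in R 4.3.3 (two-sided, Benjamini-Hochberg adjustment over 16939 genes, threshold 0.05), and the procedure was tested on simulated data. Precision is limited by the small number of arrays. The 8 genes, the lists and the tests were chosen with earlier results of these data known. Named list genes were up to 4 called per list, direction and line, plus a fixed set, and the 2 nearest profiles per gene. Deviations from group means correlated at 0.16 to 0.549 between arrays with the same replicate number and at -0.417 to 0.204 otherwise. The best partner of 12 of 12 arrays had the same number, so the numbers pair the samples, from the data. The main fit leaves this pairing out. With the replicate number as a block, limma called 562 genes in A549 instead of 297, and 4744 in HTB56 instead of 3298. Tables and figures used Python 3.11.15, pandas 2.3.3 and matplotlib 3.10.9.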

Additional observations from a re-analysis of the deposited data

Results flagged for a closer look

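Several genes changed differently with selection in the 2 lines, by the limma test of the change in A549 minus the change in HTB56 (adjusted p below 0.05, which 11.8% of all genes pass). Groups of 3 arrays are too small for a check of single outlying arrays. Of the 8 genes, TM4SF20 (-1.29) differed, with the lower change in A549. The value for SLC17A3 (-2.26) stands without a test, since the gene was chosen with its fall in A549 known. Of the related liver and kidney genes, FGB (-1.90), SLC17A1 (-1.33), HPD (-0.90) and TF (-0.75) differed likewise, with a fall in A549 and an HTB56 change of 0.09 or less in size. The difference followed a rise in HTB56 for TFRC (-0.86), TM4SF1 (-0.83), SLC17A5 (-0.60) and FOXA2 (-0.58). It followed a fall in HTB56 for TM4SF18 (3.19), ABCC2 (2.08), SPP1 (1.26), ATP7B (0.71), SLCO4A1 (0.69) and KYAT3 (0.55). Among the marker genes the values were -1.56 for COL1A1, -1.44 for EPCAM, -1.15 for COL3A1, -1.10 for CD68, -0.85 for PDGFRA, -0.81 for CDH1, 0.80 for KRT7 and 1.43 for KRT19.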

How the results depend on the processing

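Of the 2 genes called lower in A3R, where 0.809% of all genes were, TM4SF20 kept its call when 1 array was left out. Its limma adjusted p ran from 0.00397 to 0.046, and that of A1CF from 0.00159 to 0.102. CP was called without A0R replicate 1 (0.0452). SLC17A3 is not counted among these A549 calls. In HTB56 limma called 0 of the 8 genes, against 19.5% of all genes. That count became 1 (SLCO1B3, dim on all HTB56 arrays) in a fit on 6 arrays and 1 with array weights. It ran from 0 to 1 when 1 array was left out. The count of 2 with a difference between lines does include SLC17A3, whose value stands without a test. It became 1 at a threshold of 0.01 and ran from 1 to 3 when 1 array was left out. SLC17A3 was in each of these counts and was alone where the count was 1, so the counts are not read as results. The other gene of the 2, TM4SF20 (limma adjusted p = 0.0247), was not called at 0.01. Left-out arrays gave TM4SF20 adjusted p from 0.0116 to 0.0594. A1CF joined without A0R replicate 1 (0.0065). Of the related list genes, 5 were called in A549, but 2 with a filter at the 50th percentile, which tests fewer genes, and from 4 to 6 when 1 array was left out. In HTB56 21 were called (18.4%, against 19.5% of all genes), 29 with the replicate block, 12 at a threshold of 0.01 and from 15 to 22 without 1 array. The sign turned when 1 array was left out, for values that were not called, in 4 cases: CP (-0.29 to 0.073) and TM4SF20 (-0.30 to 0.16) in HTB56, and the difference between lines for SLCO1B3 (-0.064 to 0.20) and HAVCR1 (-0.21 to 0.036). In HTB56 without H0R replicate 2, KYNU was called higher (0.55, limma adjusted p = 0.023). Over all genes the 297 calls in A549 became 562 with the replicate block, 179 in a fit on 6 arrays, 179 without A0R replicate 1, and 192 without A0R replicate 2 or A3R replicate 2, and the 2000 calls between lines became 3458 with the block. Beside HGD in A549 and A1CF between lines, the block changed no other call of the 8 genes. The cause of these shifts was not tested. Dim signals limit HTB56 values and A1CF.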
